A study of Flaveria ramosissima and Flaveria robusta and Flaveria sonorensis with 9 samples.

Results

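In leaves of the C4 plant Flaveria trinervia, 57 genes differed between low CO2 and control by the size set below. Their median levels differed little in 3 relatives with other types of photosynthesis. In Flaveria ramosissima, 1 of these relatives, the spread was too wide to say that most of these genes did not change. These 57 came from 8632 genes whose average reached 1 TPM in all 4 species, out of 29558 unique gene IDs. TPM is transcript abundance per length of transcript, scaled to a fixed total in each library. The change of a gene in a species was log2(median TPM + 1) at low CO2 minus log2(median TPM + 1) in control, each median over 3 libraries. Genes were chosen by these measured changes. A gene was taken if its change in F. trinervia was at least 0.8 in size, its low CO2 and control libraries in F. trinervia did not overlap, and its changes in the other species were each below 0.4 in size. Of the 57 genes, 30 were higher at low CO2 in F. trinervia and are called rising here, and 27 were lower and are called falling.

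Newly expanded mature leaves were examined by mRNA-seq with paired-end reads of 150 bp. The low CO2 plants were kept for 4 weeks at a low CO2 level labelled 100, and the control plants at a level labelled 380. Both levels carry the unit of light intensity in the labels and are quoted as labelled. At each level there were 3 libraries of the C4 plant F. trinervia, the C3 plant F. robusta, the Type I C3-C4 plant F. sonorensis and the Type II C3-C4 plant F. ramosissima, which makes 24 libraries of wild species with no allele or transgene named. All groups shared the growth chamber settings of light, temperature, day length and humidity that the labels give. No source used here tells if the libraries of a group were made from separate plants, so intervals and p-values measure the spread between libraries, which may be technical.

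C3 plants fix CO2 with Rubisco in the mesophyll, and Rubisco also takes up oxygen, which starts photorespiration. C4 plants fix bicarbonate with PEP carboxylase in the mesophyll, move the C4 acid to the bundle sheath and release CO2 there around Rubisco. This pump keeps CO2 high at Rubisco, so photosynthesis of C4 plants is less limited by low CO2 than that of C3 plants. C3-C4 plants of Type I recapture photorespired CO2 in the bundle sheath, and those of Type II also run a partial C4 cycle. The IDs in the deposited table are numbers that the files do not pair with gene names, so none of the 57 genes can be placed in these pathways, the leaf label could not be checked against marker genes, and 4 IDs are given as examples.

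The 3 control libraries of F. ramosissima stood apart from the rest in their spread. Over the 8632 genes, the Spearman rank correlation between libraries of 1 group was 0.835 to 0.933 among them, against 0.939 to 0.987 in the other 7 groups, as a description across genes, which are not independent replicates. The rule found 24, 26 and 29 rising genes and 21, 36 and 17 falling genes without F. ramosissima control library 1, 2 or 3, in that order, against 30 rising and 27 falling genes with all libraries. Read numbers are not kept in TPM, so sequencing depth is unknown.

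The choice used the low CO2 contrast of all 4 species, so the changes and levels below describe the genes and carry no test. The 30 rising genes had changes of 0.80 to 2.43 in F. trinervia, with a median of 0.97. As plain TPM, the low CO2 median of a rising gene was 1.76 to 5.80 times its control median, with a median ratio of 2.04. The 27 falling genes had changes of -2.27 to -0.81, with a median of -0.95, and TPM ratios of 0.179 to 0.555 with a median of 0.466. Most genes of both lists thus lay near a doubling or a halving. A change of at least 1 in size was reached by 14 rising and 10 falling genes, and one of at least 1.5 by 4 rising and 3 falling genes. Changes below 0.9 in size were held by 11 rising and 12 falling genes. In bulk leaf RNA, a change in the share of a cell type and a change in RNA per cell cannot be told apart.

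**Figure D1:**
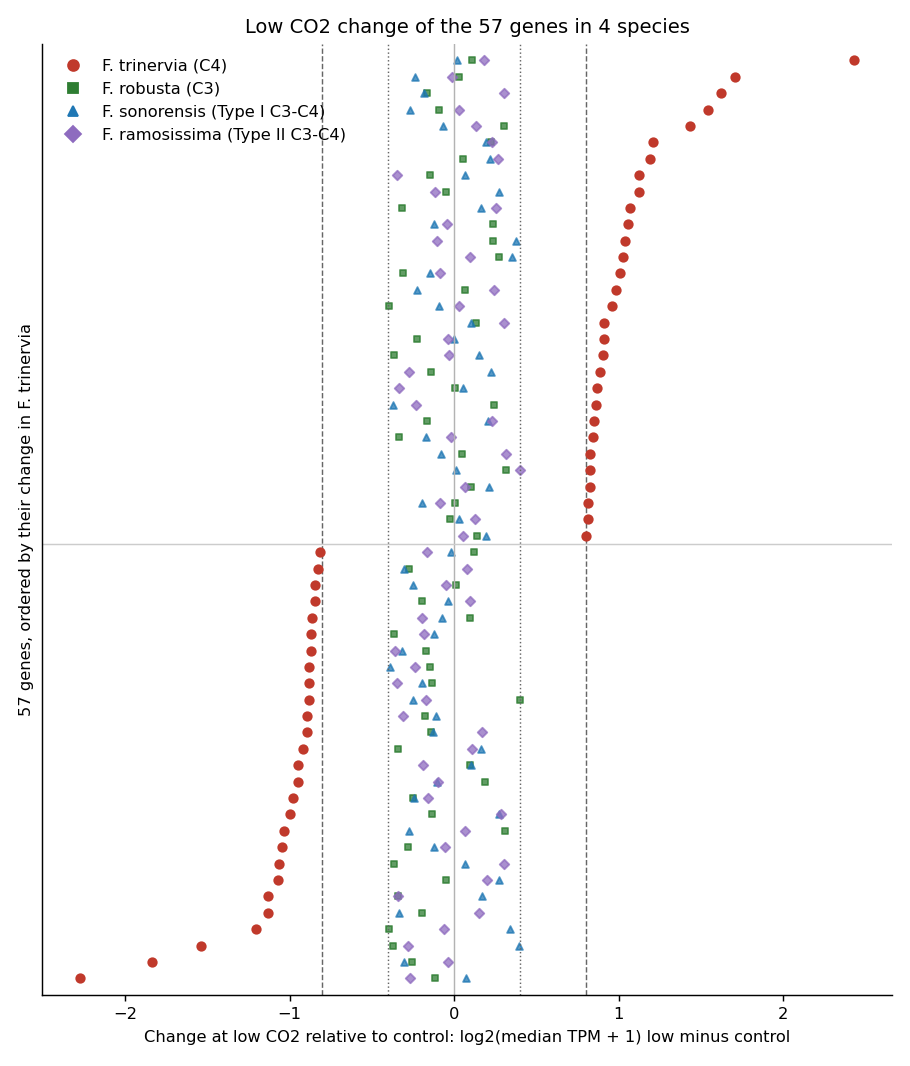
Change at low CO2 relative to control, as log2(median TPM + 1), of the 57 genes in 4 species. Each row is 1 gene, red circles are F. trinervia, and the dashed and dotted lines mark the limits of 0.8 and 0.4. The red circles run from -2.27 to 2.43, and the symbols of the other species stay between the dotted lines by the choice of genes.

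Gene27668 had the largest change of all 57 genes and was abundant. Its level in F. trinervia was 650.1, 979 and 919 TPM in the low CO2 libraries, against 138, 170.1 and 243 TPM in the control libraries. The lowest low CO2 library was thus far above the highest control library, and the change of medians was 2.43. In the other species the libraries of the 2 CO2 levels overlapped. F. robusta had 1455, 2426 and 1625 TPM at low CO2, against 1309, 1509 and 1904 TPM in control. F. sonorensis had 575, 394 and 329 TPM at low CO2, against 475, 333 and 390 TPM in control. F. ramosissima had 751, 930 and 968 TPM at low CO2, against 579, 1013 and 819 TPM in control. At low CO2 the F. trinervia libraries overlapped those of F. ramosissima and lay below those of F. robusta. In control F. trinervia was the lowest of the 4 species, with all 3 libraries below those of every other species. F. trinervia minus the median of the other species was -0.02 at low CO2 and -2.26 in control, in log2(TPM + 1).

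Gene17102 showed another kind of pattern, in which F. trinervia moved away from its relatives. Its level in F. trinervia was 58.6, 67.5 and 66.9 TPM at low CO2, against 27.9, 19.3 and 21.1 TPM in control. F. robusta had 10.7 to 15.9 TPM at low CO2 and 12.7 to 19.1 TPM in control, and F. sonorensis had 9.56 to 19.4 TPM at low CO2 and 14.8 to 18.4 TPM in control. F. ramosissima had 7.56 to 12.6 TPM at low CO2 and 6.50 to 21.4 TPM in control. The low CO2 libraries of F. trinervia were thus above all other libraries of the experiment, whereas its control libraries were close to the highest library of F. ramosissima. Relative to the median of the other species, F. trinervia was 2.18 higher on the log2 scale at low CO2 and 0.38 higher in control. The change of 1.62 in F. trinervia became 1.41 without control library 2, which was its lowest.

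Gene03162 had the largest fall. Its level in F. trinervia was 3.43, 9.02 and 5.01 TPM at low CO2, against 21.8, 33.5 and 28.0 TPM in control, a change of -2.27. F. robusta stood at 19.8 to 21.0 TPM at low CO2 and 16.0 to 26.2 TPM in control, and F. sonorensis at 7.64 to 11.7 TPM at low CO2 and 4.26 to 16.9 TPM in control. The groups overlapped in both species. F. ramosissima had 2.36, 6.72 and 5.68 TPM at low CO2, but its control libraries were 7.05, 31.0 and 0.63 TPM. The small change of -0.27 in F. ramosissima therefore rests on the middle one of 3 widely scattered control libraries. In limma, the 95% interval of the mean change there ran from -2.73 to 1.88. limma fits a linear model to each gene and shares information on the spread across genes.

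Gene14820 had the second largest fall, with tight libraries in F. trinervia. Its level was 6.06, 5.61 and 7.40 TPM at low CO2, against 24.2, 25.7 and 23.3 TPM in control, a change of -1.84. The gap between the nearest libraries of the 2 CO2 levels was 1.53 on the log2 scale, the widest among the falling genes. In F. robusta all low CO2 libraries, at 8.65 to 10.6 TPM, were also below the control libraries, at 10.8 to 16.9 TPM, although the change was only -0.26. F. sonorensis had 10.5 to 18.9 TPM at low CO2 and 13.5 to 18.7 TPM in control, and F. ramosissima had 2.46 to 8.99 TPM at low CO2 and 2.12 to 6.28 TPM in control. F. trinervia minus the median of its relatives was -0.51 at low CO2 and 1.07 in control for Gene14820, and -0.71 at low CO2 and 1.63 in control for Gene03162, in log2(TPM + 1). Both genes thus lay below the median of the relatives at low CO2 and above it in control, and at low CO2 the F. trinervia median of Gene14820 was still above that of F. ramosissima.

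**Figure D2:**
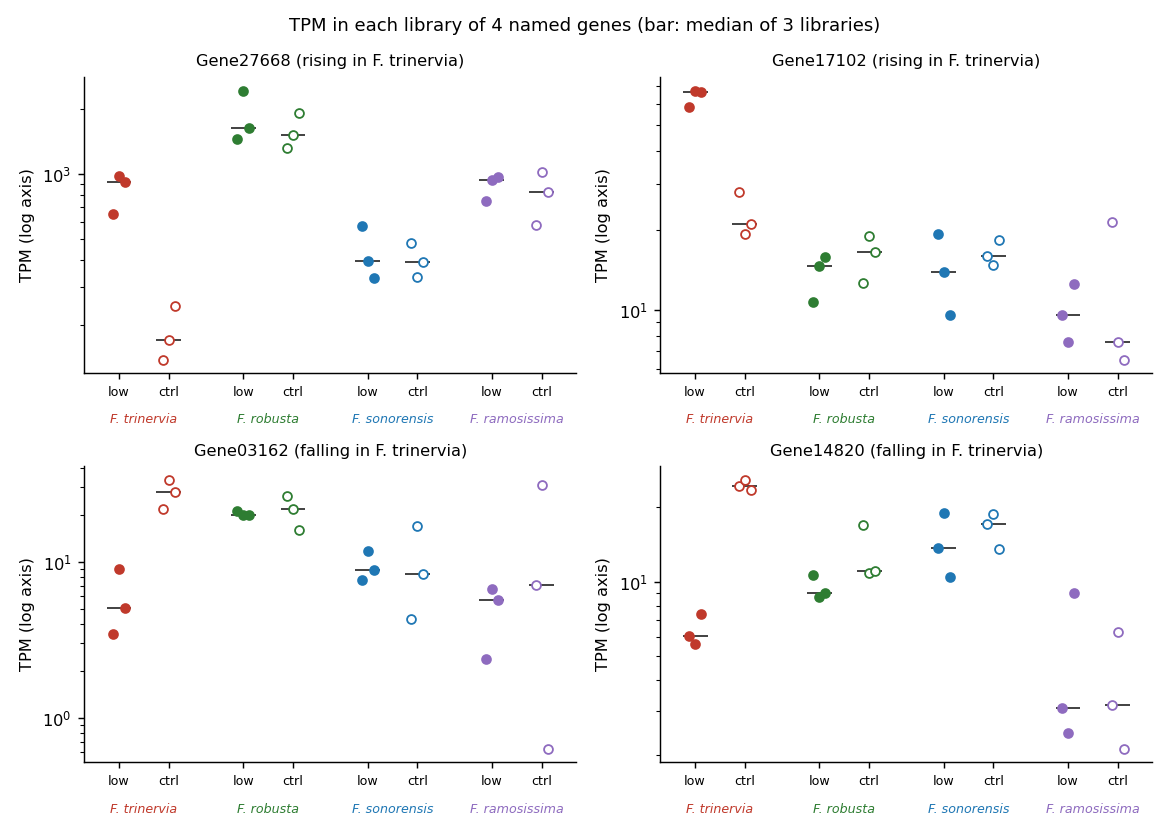
TPM in each library (log axis) of Gene27668, Gene17102, Gene03162 and Gene14820 in 4 species, with filled points for low CO2, open points for control and bars for the median of 3 libraries. The red F. trinervia groups are apart in all 4 panels, and the control libraries of F. ramosissima run from 0.63 to 31.0 TPM for Gene03162.

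The genes covered a wide range of abundance. The mean over the 6 F. trinervia libraries was 3.11 to 722 TPM for the rising genes, with a median of 33.0, and 1.17 to 2568 TPM for the falling genes, with a median of 15.4. Over all 8632 genes the median was 13.0 TPM. At least 100 TPM was reached by 6 of the 30 rising and 5 of the 27 falling genes, and by 9.85% of all genes. Below 10 TPM were 4 rising and 10 falling genes, and 41.2% of all genes. Summed over the 30 rising genes, F. trinervia held 4522 ± 133 TPM at low CO2 and 1990.0 ± 218 TPM in control (SD, n = 3 libraries each). Summed over the 27 falling genes it held 2887 ± 450 TPM at low CO2 and 6022 ± 579 TPM in control (SD, n = 3 libraries each).

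The most abundant falling gene made up most of the falling sum. It stood at 1149, 1940.0 and 1715 TPM in the low CO2 libraries of F. trinervia, against 3805, 3591 and 3209 TPM in the control libraries. Its medians in the other species were several times higher, at 12343 TPM at low CO2 and 15922 TPM in control in F. robusta, 18038 and 17218 TPM in F. sonorensis, and 16074 and 13006 TPM in F. ramosissima. The gene is thus one of those that F. trinervia held far below its relatives at both CO2 levels. In F. robusta its low CO2 libraries, at 10951, 12343 and 13090 TPM, also lay below the control libraries, at 15107, 16455 and 15922 TPM. That change was -0.37, just inside the limit of 0.4.

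The most abundant rising gene had 1275, 743 and 918 TPM in the low CO2 libraries of F. trinervia, against 389, 441 and 567 TPM in the control libraries. The spread within both groups was wide, and the groups were apart by 0.39 on the log2 scale. Among the least abundant rising genes, 1 with a mean of 3.11 TPM had 4.37, 5.16 and 6.50 TPM at low CO2, against 0.76, 0.98 and 0.89 TPM in control. This gene stayed at 0.93 to 2.27 TPM in every library of the other species, so at low CO2 F. trinervia was the species that stood apart. Its change of 1.70 was the second largest among the rising genes.

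**Figure D3:**
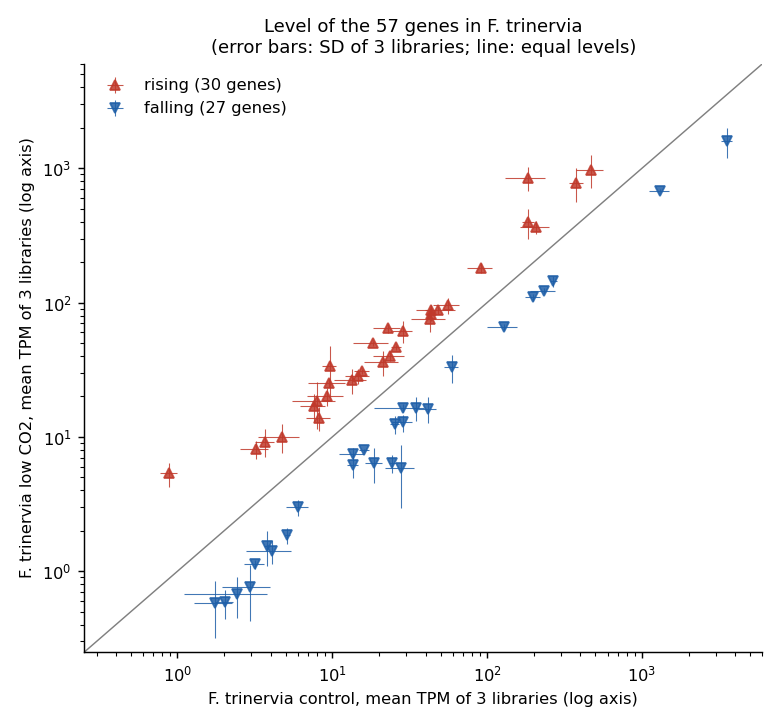
Mean TPM of the 57 genes in F. trinervia at low CO2 (vertical, log axis) against control (horizontal, log axis), with bars for the SD of 3 libraries and a line of equal levels. The 30 rising genes lie above the line and the 27 falling genes below it, and the genes are spread from 1.17 to 2568 TPM in their mean over both CO2 levels.

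The 57 genes met the rule with unequal margins. The gap between the nearest low CO2 and control libraries of F. trinervia was 0.05 to 1.44 on the log2 scale for the rising genes, with a median of 0.60, and below 0.3 for 5 of them. For the falling genes it was 0.05 to 1.53, with a median of 0.64, and below 0.3 for 1 of them. The falling gene with the smallest gap had 17.8, 15.4 and 16.3 TPM at low CO2, against 38.6, 18.4 and 29.3 TPM in control. Just inside the F. trinervia limit stood a rising gene at 0.802 and a falling gene at 0.812 in size, and just outside it genes at 0.795 and 0.797. Within 0.05 above that limit lay 8 rising and 4 falling genes, and within 0.05 below it were 11 and 3 genes that met the other conditions. The largest change in another species was 0.3996 among the rising and 0.3979 among the falling genes, while the nearest genes left out had 0.4018 and 0.4008.

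The libraries of F. trinervia did not contribute evenly. Control library 2 was the one farthest from the low CO2 level in 24 of the 30 rising and 15 of the 27 falling genes. Farthest means the lowest control library for a rising gene and the highest for a falling gene, and over all genes control library 2 was the lowest in 52.7% and the highest in 24.3%. Control library 1 was the one nearest to the low CO2 level in 16 of the 30 rising genes. This is near its share over all genes, where it was the highest of the 3 in 55.1%. For the falling genes, control library 3 was the nearest in 13 of 27, and it was the lowest of the 3 in 32.3% of all genes. Low CO2 library 2 was the one nearest to control in 18 rising genes, and was the lowest of the 3 in 43.5% of all genes. The part of these shared library differences in the choice of the 57 genes was not tested, but the counts without each library are given with the processing alternatives.

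Next, the position of F. trinervia among the 4 species was compared at each CO2 level. Among the rising genes, F. trinervia had the highest median of the 4 species in 19 of 30 at low CO2 and in 6 of 30 in control. Over all 8632 genes these shares were 20.8% at low CO2 and 17.7% in control. F. trinervia was the lowest species for 5 rising genes at low CO2 and for 13 in control. The median rising gene was 1.06 higher in F. trinervia than the median of the other species at low CO2, and 0.005 higher in control, on the log2 scale. The median of 0.005 in control covers genes on both sides, since 15 of the 30 lay above the median of the other species, and the median size of the difference was 0.77 for the rising genes, against 0.59 over all genes. Over all genes F. trinervia was lowest in 14.5% at low CO2 and 17.8% in control. The choice of genes fixed the direction of the shift from control to low CO2 among the rising genes. Each of them had to rise by more in F. trinervia than in any relative. For 12 of the 30, as for Gene27668, F. trinervia was nearer to the median of the other species at low CO2 than in control.

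The falling genes took the opposite course. Their choice fixed this too, since each had to fall by more in F. trinervia than in any relative. F. trinervia had the lowest median of the 4 species for 15 of the 27 at low CO2 and for 5 in control, and the highest for 1 at low CO2 and for 8 in control. For the falling genes the median of F. trinervia minus the other species was -0.56 at low CO2 and 0.20 in control. F. trinervia was nearer to the other species at low CO2 than in control for 10 of the 27. No share over all genes is set beside this count or the matching count of rising genes, so neither is read further. Levels between species depend on how genes of different genomes were paired on 1 row, which no source used here gives, and on scaling. Under median-ratio scaling F. trinervia was highest for 18 rising genes at low CO2 and 9 in control, and under quantile scaling for 19 and 6. It was lowest for 20 falling genes at low CO2 and 6 in control under median-ratio scaling, and for 14 and 5 under quantile scaling. It was highest for 6 falling genes in control under median-ratio scaling, so in control it was then as often highest as lowest. Over all 8632 genes it was highest for 2032 at low CO2 and 2012 in control under median-ratio scaling, and for 1702 and 1624 under quantile scaling. It was lowest for 2058 of all genes at low CO2 and 2062 in control under median-ratio scaling, and for 1331 and 1394 under quantile scaling. With TPM as deposited it was lowest for 1251 of all genes at low CO2.

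**Figure D4:**
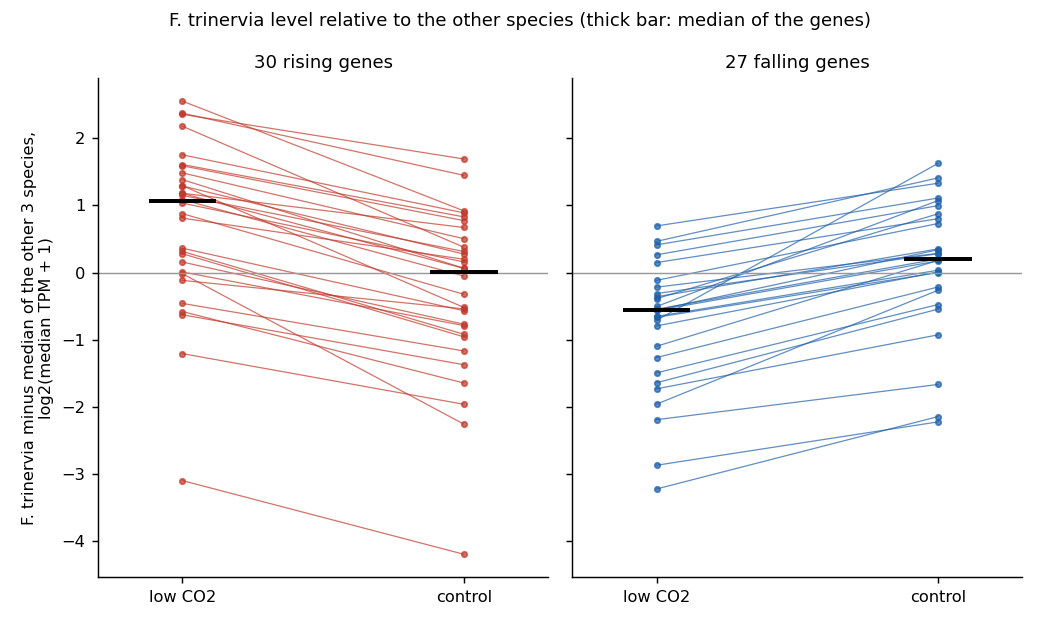
F. trinervia minus the median of the other 3 species, in log2(median TPM + 1), at low CO2 and control for the 30 rising genes (left) and the 27 falling genes (right). Each line is 1 gene and black bars are medians, which stand at 1.06 at low CO2 and 0.005 in control for rising genes, and at -0.56 at low CO2 and 0.20 in control for falling genes. The direction of the lines follows from the choice of genes.

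How many of these genes a linear model called is given for description only, since the rule used the same contrast. limma (two-sided, p-values adjusted over all genes by the Benjamini-Hochberg method, threshold 0.05) called 29 of the 30 rising genes higher at low CO2 in F. trinervia, where 9.28% of the 13793 genes tested were called higher. It called 26 of the 27 falling genes lower, where 10.9% were called lower. The uncalled rising gene had 42.1, 27.6 and 37.8 TPM at low CO2, against 20.9, 16.1 and 26.7 TPM in control, and the uncalled falling gene was the one with the smallest gap. That low CO2 and control libraries of F. trinervia did not overlap was a condition for all 57, and among all 8632 genes low CO2 lay wholly above control for 21.8% and wholly below it for 21.5%.

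In a model of all 24 libraries, the change in F. trinervia was set against the mean change of the other 3 species. The genes were chosen on this contrast in the same libraries, so these counts and intervals are also description only. The difference was called for 17 of the 30 rising genes, where 3.65% of the 8632 genes were called higher in F. trinervia, and for 10 of the 27 falling genes, where 1.47% were called lower. Gene27668 had a difference of 2.07 with a 95% interval of 1.439 to 2.698, and Gene17102 had 1.65 with an interval of 0.89 to 2.40. Gene14820 had -1.66 with an interval of -2.44 to -0.88, and Gene03162 had -2.01 with a wide interval of -3.60 to -0.43. Gene03162 was thus not among those called despite the largest fall. A large and non-overlapping change in F. trinervia with small median changes elsewhere did not, for 13 rising and 17 falling genes, come with a called difference between F. trinervia and its relatives. The widely scattered control libraries of F. ramosissima enter both this difference and its spread. A missing call therefore does not show that the relatives changed as F. trinervia did. Over all 8632 genes, 442 were called, against 876 or 837 without F. ramosissima control library 2 or 3.

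In the other species the medians of the 30 rising changes were 0.02, 0.02 and 0.04 for F. robusta, F. sonorensis and F. ramosissima. All 3 species had the sign of F. trinervia for 8 of the 30 rising genes and the opposite sign for 3. The falling genes had medians of -0.17, -0.11 and -0.10 in the same order. Of the 27 falling changes, 7, 9 and 9 were above 0, and of the 30 rising changes 17 were above 0 in each species. Among all genes with a change below 0.4 in size, 51.9%, 45.2% and 40.1% were above 0 in these species. For 8 falling genes all 3 other species had the sign of F. trinervia, and for 0 did all 3 have the opposite sign. No share over all genes is set beside these joint counts of signs, for rising or falling genes, so they are not read further.

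Few of the small changes elsewhere had separate libraries. In F. robusta the libraries of the 2 CO2 levels did not overlap for 4 rising and 9 falling genes, against 49.5% of all genes. In F. sonorensis this held for 5 rising and 5 falling genes, against 48.6% of all genes, and in F. ramosissima for 2 rising and 1 falling gene, against 19.2% of all genes. In F. robusta all 4 of these rising genes and most of the 9 falling genes were lower at low CO2. Most of those falling genes thus fell with separate libraries in F. robusta too. Such falls were common there. Over all 8632 genes, low CO2 in F. robusta lay wholly below control for 2483 and wholly above it for 1788. The falls in F. robusta are therefore not read as a trait of the falling genes. In F. sonorensis both directions occurred in both lists, and in F. ramosissima the direction was that of F. trinervia. limma called 1 rising and 1 falling gene in F. robusta, both lower at low CO2, where 31.4% of the genes tested were called. It called 0 of the 57 in F. sonorensis, where 25.5% were called, and 0 in F. ramosissima, where 0.0256% were called. At an unadjusted p below 0.05, limma had 3 rising and 4 falling genes in F. robusta, against 42.7% of the genes tested, 2 rising and 4 falling genes in F. sonorensis, against 38.7%, and 0 of both in F. ramosissima, against 11.1%. Low counts in these species follow from the limit of 0.4 and are not read further. The rising gene that limma called lower in F. robusta had 279.8, 271 and 248 TPM at low CO2, against 341, 337 and 362 TPM in control. In F. trinervia it had 511, 333 and 344 TPM at low CO2, against 191, 166 and 196 TPM in control, so both species showed separate groups in opposite directions.

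A change below 0.4 does not show that a gene was unaffected, and the precision differed between species. The 95% interval of the limma change had a median half-width, over the rising genes, of 0.43 in F. trinervia, 0.38 in F. robusta and 0.34 in F. sonorensis, but 0.76 in F. ramosissima. Over the falling genes these were 0.38, 0.41, 0.37 and 0.80. Accordingly, a change of 0.8 in the direction of F. trinervia lay within the interval in F. ramosissima for 18 of the 30 rising and 19 of the 27 falling genes. In F. robusta this held for 1 rising and 4 falling genes, and in F. sonorensis for 2 rising and 1 falling gene. The CV between the 3 control libraries of F. ramosissima had a median of 33.4% over the rising genes, 43.0% over the falling genes and 38.0% over all genes. In F. trinervia controls it was 19.5%, 12.7% and 13.5%. In F. ramosissima, then, a change of the size required in F. trinervia was not detectable apart from the spread for most of the 57 genes, and it cannot be said that these genes did not change there.

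The 57 genes were a small share of what differed in F. trinervia. A change of at least 0.8 in size was measured for 1094 of the 8632 genes, of which 451 were higher and 643 lower at low CO2, and 960 of them also had separate libraries. Of these 960, the number of other species with a change below 0.4 was 0 for 378 genes, 1 for 336 genes, 2 for 189 genes and 3 for the 57, or 5.94%. By direction, the 57 were 8.13% of the 369 higher and 4.57% of the 591 lower genes. The remaining higher genes had a median change of 1.08 and the remaining lower genes one of -1.15, against 0.97 and -0.95 for the rising and falling genes. A change of at least 1.5 in size was held by 19.2% of the remaining higher genes and 19.7% of the remaining lower genes, against 13.3% of the rising and 11.1% of the falling genes.

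Genes with a large and separate change in F. trinervia more often changed the same way elsewhere than the opposite way. Of the 369 higher genes, 84, 131 and 126 genes by species (F. robusta, F. sonorensis, F. ramosissima) also had a change of at least 0.8 upwards, and 28, 16 and 11 had one of that size downwards. Of the 591 lower genes, 256, 173 and 247 had a change of that size downwards in the same order, and 15, 6 and 4 had one upwards. A change below 0.4 was found for 33.3% to 33.9% of the higher genes in each other species, and for 25.9%, 38.6% and 22.5% of the lower genes in F. robusta, F. sonorensis and F. ramosissima. Over all 8632 genes this share was 57.1%, 62.1% and 57.0%.

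With another species in the place of F. trinervia, the same rule found 108 genes for F. robusta (61 rising, 47 falling), 80 genes for F. sonorensis (32 rising, 48 falling) and 33 genes for F. ramosissima (12 rising, 21 falling). A change confined to 1 species by this rule was thus counted in every species, and F. trinervia had neither the most nor the fewest. The counts cannot be compared as responses, because the condition of separate libraries depends on the spread. In F. ramosissima it was met by 46.3% of the genes with a change of at least 0.8, against 87.8% in F. trinervia, 93.7% in F. robusta and 92.5% in F. sonorensis.

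**Figure D5:**
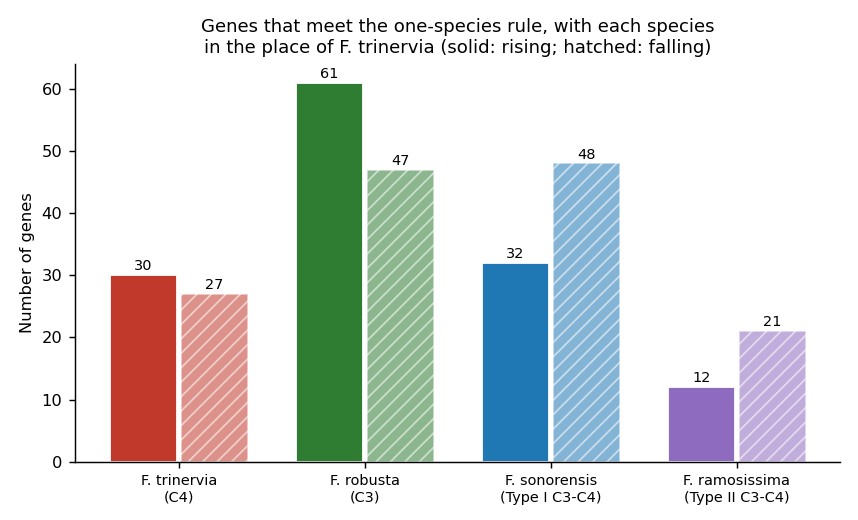
Number of genes that met the rule with each species in the place of F. trinervia, with solid bars for rising and hatched bars for falling genes. F. trinervia had 30 rising and 27 falling genes, F. robusta 61 and 47, F. sonorensis 32 and 48, and F. ramosissima 12 and 21.

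Which genes made up the list depended on the libraries and the scaling. When each of the 24 libraries was left out in turn, 5 of the 57 genes, 4 rising and 1 falling, met the rule every time, and the 4 genes with an ID above met it in 17 to 22 of the 24 repeats. The falling gene kept every time had 14.6, 10.8 and 11.9 TPM at low CO2, against 26.9, 23.4 and 25.6 TPM in control, with a change of -1.05. Of the 4 rising genes kept every time, 1 had 91.8, 72.8 and 81.6 TPM at low CO2, against 42.6, 43.8 and 42.9 TPM in control, with a change of 0.91. Under median-ratio scaling 14 of the 30 rising and 12 of the 27 falling genes still met the rule, and under quantile scaling 15 and 16 did. In both cases all 57 kept the sign of their change in F. trinervia. Of the genes lost under median-ratio scaling, 14 rising and 9 falling genes passed the limit of 0.4 in another species, while 1 rising and 7 falling genes failed the F. trinervia condition. With means in place of medians, 22 rising and 12 falling genes met the rule, and neither Gene03162 nor Gene14820 was among them.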

How the data were processed

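Leaf RNA was sequenced in the paired-end mode. Per the methods stated for RNA-seq of these species, the authors mapped reads to each species' genome with STAR (V2.7) and estimated abundance with RSEM (V1.3.3), which divides reads between near-identical copies. Those methods give other growth conditions and do not describe low CO2. The labels' processing notes also list edgeR, which was not used here. The deposited values are TPM in 24 library columns (0 columns unused), summing to 85.9% to 92.6% of the full TPM total. Columns were assigned to groups by the codes in the labels. TPM is relative within a library and keeps no depth, so the depth is unknown and the spread between libraries was the only measure of precision.

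Of 29566 rows, 8 rows with 4 repeated IDs were left out. The rule was applied with Python 3.11.15 and pandas 2.3.3. Fits used log2(TPM + 1) in limma 3.58.1 (R 4.3.3; two-sided eBayes, variance trend on). They compared 3 against 3 libraries per species for genes that averaged 1 TPM or more there, and took all 24 libraries with 1 mean per group for the difference between F. trinervia and the others. Fold changes on this scale understate the change of low genes. The rule and the fits were tested on simulated data. The members and lists were chosen with earlier results of these data known. Genes named by ID were the 2 rising and 2 falling genes with the largest change at a mean of at least 10 TPM in F. trinervia, since the IDs carry no names. Other genes were described by their rank. Gene lists were not used, as 0 IDs could be matched to them. Alternatives covered the pseudocount, the minimum TPM, scaling, means, the limits, overlap, the variance trend, blocking on the replicate number, and leaving out libraries in turn. A long-read F. ramosissima sample of mixed organs was not analysed here.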

Additional observations from a re-analysis of the deposited data

Results flagged for a closer look

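Across 8632 genes, the low CO2 change in F. trinervia differed from the mean change of the other 3 species for 442 genes in limma (adjusted over all genes, threshold 0.05), 315 of them higher and 127 lower in F. trinervia. This difference between species was tested directly in the model of 24 libraries. Of the genes described above, 17 rising and 10 falling ones were among the 442, which is a description, since those genes were chosen on the same contrast in the same libraries.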

How the results depend on the processing

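The number of rising genes was 30 and became 134 with no minimum TPM, 14 with an F. trinervia limit of 1, and 15 or 52 with a limit of 0.3 or 0.5 for the other species. The number of falling genes was 27 and became 149 with no minimum TPM, 13 with a minimum of 5 TPM, 50 under quantile scaling, 10 with an F. trinervia limit of 1, and 12 or 52 with a limit of 0.3 or 0.5 for the other species. Leaving out 1 library gave 24 to 56 rising and 17 to 38 falling genes. The rising count was 49 without low CO2 library 2 and 56 without control library 1 of F. trinervia, and the falling count was 17 without control library 3 of F. ramosissima. Pseudocounts of 0.5 and 2, median-ratio scaling, means and allowed overlap kept both counts within 1.5 times.

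limma called 2785 genes in F. trinervia (1280 higher, 1505 lower), 1342 with no minimum TPM, and 1476 to 2349 with 1 library left out, with 1476 without low CO2 library 3 and 1798 without control library 2. The split was 1671 higher and 1370 lower under median-ratio scaling. The difference from the other species was called for 442 genes (315 higher, 127 lower), 1367 with no minimum TPM, 273 with a minimum of 5 TPM, and 162 to 876 with 1 library left out. It was called for 214 and 219 genes without F. trinervia low CO2 library 1 or 3, 162 and 242 without its control library 2 or 3, and 876 and 837 without F. ramosissima control library 2 or 3. The split was 256 and 231 under median-ratio scaling and 333 and 299 under quantile scaling. Median-ratio scaling moved the median change of all genes in F. ramosissima to 0.04, against -0.18 as deposited, and in F. sonorensis to 0.06, against -0.07. With a replicate block the counts were 3118 and 535, but same-numbered libraries of F. trinervia correlated at 0.233, 0.299 and -0.015, so the numbers were not taken as pairs. The changes of the 4 genes with an ID kept their direction, at 2.15 to 2.57 for Gene27668, 1.41 to 1.68 for Gene17102, -2.47 to -1.86 for Gene03162 and -1.92 to -1.71 for Gene14820. The causes were not tested. TPM keeps no depth, so counting error could not be set beside the spread between libraries.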
